A study of Mus musculus with 4 samples.

Results

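The muscle acetylcholine receptor subunit genes described here are Chrnd, Chrng and Chrne, which encode the delta, gamma and epsilon subunits. They were chosen by their deposited fold-change values, as the rows with these symbols in the authors' tables of genes lower or higher in sh-Mrhl cells, so their own values are a description. All 3 were found, 1 row each, among 1132 distinct symbols in the tables. The cells were E14tg2a, an established mouse embryonic stem cell line of the 129/Ola strain. Of the 4 RNA libraries, 2 were from cells given a scrambled shRNA and 2 from cells given an shRNA against Mrhl (sh-Mrhl), all taken 48 hours after a transient transfection. Mrhl, a long non-coding RNA found in the nucleus, was the target, and the comparison asks which transcripts differ when it is targeted. The labels also have a field headed lentivirus, they do not give the share of cells that took up the shRNA, and they do not say whether the libraries of a group came from separate cultures.

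The muscle acetylcholine receptor is the ion channel by which a motor neuron excites a skeletal muscle fibre. It is a pentamer of alpha, beta and delta subunits with either a gamma or an epsilon subunit. Fetal and denervated muscle uses the gamma subunit, and around birth the epsilon subunit takes its place at the maturing neuromuscular junction. In humans, loss of CHRNG function causes a fetal syndrome with joint contractures, and loss of CHRNE function is a frequent cause of congenital myasthenia. Myogenic bHLH factors acting through E-boxes and ETS factors acting through an N-box are the classical regulators of these genes in muscle.

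All of these subunits belong to the Cys-loop receptors, named after a loop closed by a pair of cysteines in the extracellular domain. The stretch of coding sequence for this loop is shown because it lets a reader compare the gamma and epsilon transcripts in this part. The authors listed these transcripts in opposite directions. Over their whole aligned coding sequences they were less alike than in the loop, with 61.5% of bases identical. Sequences are from the GENCODE M21 transcripts, with the cysteine codons at both ends in capitals.
Chrng (coding bases 448 to 492): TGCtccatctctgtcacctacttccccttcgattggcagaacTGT
Chrne (coding bases 442 to 486): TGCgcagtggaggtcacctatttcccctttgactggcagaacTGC
Chrnd (coding bases 460 to 504): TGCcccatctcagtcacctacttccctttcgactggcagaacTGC
The loop was found in frame as a cysteine codon (TGT or TGC), 13 codons of which the 8th begins with CC, and a second cysteine codon. Each of the 5 muscle subunit genes had 1 match, against a match in 2.81% of 21562 annotated coding sequences. The pattern describes the loop that names this family, so a match in these genes was fixed in advance. It also fixes some of the letters compared, which raises the likeness within the loop. Over these 45 bases, Chrng and Chrne were identical at 34, Chrng and Chrnd at 40, and Chrnd and Chrne at 35. The fetal gamma sequence was thus closer here to the delta sequence of its neighbouring gene than to the epsilon sequence. Being closer than epsilon was not particular to the neighbour. Chrnb1, on chromosome 11 and not listed, was identical to Chrng at 37 of these bases, and Chrna1 at 33. Over the whole coding sequences, the order of the delta and epsilon pairs changed with the measure, as given below.

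The promoters of the fetal and the adult subunit gene are shown because the motif matches found in them differ. Sequences are from RefSeq on GRCm38.p6, from 250 bases before to 50 after the start, with E-boxes and the N-box in capitals. The Chrng window is chr1:87205561-87205860 on the plus strand, built on the start at 87205811. The Chrne window is chr11:70619145-70619444 on the minus strand, built on the start at 70619194, which lies 19 bases inside the outermost RefSeq start of the gene at 70619213. Distances below are from these window starts.
Chrng: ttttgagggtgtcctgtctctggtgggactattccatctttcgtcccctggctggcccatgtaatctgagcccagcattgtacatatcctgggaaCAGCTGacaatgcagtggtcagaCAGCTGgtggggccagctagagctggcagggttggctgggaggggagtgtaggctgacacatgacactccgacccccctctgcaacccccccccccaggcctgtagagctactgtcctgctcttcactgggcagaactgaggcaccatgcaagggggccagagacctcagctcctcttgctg
Chrne: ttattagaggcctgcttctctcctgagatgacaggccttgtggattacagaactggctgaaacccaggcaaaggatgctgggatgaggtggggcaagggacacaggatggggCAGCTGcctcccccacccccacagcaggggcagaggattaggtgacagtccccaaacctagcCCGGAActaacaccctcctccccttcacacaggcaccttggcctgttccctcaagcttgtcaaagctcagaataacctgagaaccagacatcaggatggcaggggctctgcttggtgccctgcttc
Motifs were searched on both strands, as CAGCTG and as CAGGTG or CACCTG for E-boxes and as CCGGAA or TTCCGG for the N-box. No match in these windows overlapped another. The Chrng window held 2 CAGCTG letters, beginning 155 and 132 bases before the start, and no N-box. The Chrne window held 1 CAGCTG, beginning 138 bases before the start, and 1 N-box, CCGGAA, beginning 76 bases before it. Of 32851 promoters of this length, 16.3% held CAGCTG, 14.9% held an N-box, 1.90% held at least 2 CAGCTG and 2.05% held CAGCTG together with an N-box. The shares for these combinations were not planned. They repeat what the Chrng and Chrne windows held, so nothing is read from their size. Of the remaining muscle subunit genes searched, Chrna1 held 2 CAGCTG and 1 CAGGTG or CACCTG, and Chrnb1 held 1 CAGGTG or CACCTG. The promoter of Chrnd was not searched here. A motif match is a description of letters and does not show that a factor was bound in these cells.

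The authors' tables placed the fetal and the adult subunit on opposite sides. The delta and gamma genes were listed as lower in sh-Mrhl, and the epsilon gene as higher. The background of the tables was 1.58% of annotated protein-coding symbols listed as lower and 0.935% listed as higher, and since these tables chose the genes, nothing is read from the counts of 2 lower and 1 higher. Each gene has 1 signed value for sh-Mrhl against scrambled. The tables give neither levels nor counts for single libraries, and no p-values. So no value for a single sample can be shown, depth is unknown, and no test or replicate error is attached to any value. The scale of the values is not stated, and no absolute value was under 1.5, so each is given as deposited. These were bulk libraries, in which fewer cells of a type and less RNA per cell cannot be told apart.

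Chrnd encodes the delta subunit, which is part of both the fetal and the adult receptor. Its value in the authors' deposited table was -2.20. The level in sh-Mrhl would be 45.4% of that in scrambled if the value is a signed linear fold, and 21.7% if it is a log2 ratio. By absolute value Chrnd ranked 230 of 722 symbols in the lower table and 117 of the 348 protein-coding symbols there. The median of the protein-coding symbols in the lower table was -1.95, so Chrnd lay beyond it. The protein-coding symbol with the next smaller absolute value was the gene model Gm26558, also at -2.20 in the authors' deposited table.

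Chrng encodes the gamma subunit, which marks the fetal receptor. Its value in the authors' deposited table was -1.66, nearer to 0 than that of Chrnd. The level in sh-Mrhl would be 60.4% of that in scrambled on a signed linear scale and 31.7% on a log2 scale. It ranked 610 of 722 symbols by absolute value, and 301 of the 348 protein-coding symbols, so that 86.5% of the protein-coding symbols in the lower table had a value at least as far from 0. Its neighbours in value among protein-coding genes were Tmem117 at -1.65 and Rgs4, which encodes a regulator of G protein signalling, at -1.66 in the authors' deposited table. Chrng was thus close to the smallest values listed, whereas Chrnd was in the upper part of its table.

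Chrne encodes the epsilon subunit, which takes the place of gamma in the adult receptor. Its value in the authors' deposited table was 2.20. The level in sh-Mrhl would be 220.3% of that in scrambled on a signed linear scale and 460.5% on a log2 scale. Chrne ranked 96 of 411 symbols in the higher table by absolute value and 62 of its 207 protein-coding symbols, whose median was 1.96. The protein-coding genes next to it in value were Stxbp5l, which encodes a tomosyn-type regulator of vesicle release, at 2.19 and the gene model Gm10337 at 2.21 in the authors' deposited table. The absolute values of Chrnd and Chrne differed by 0.00057 in the authors' deposited tables, with opposite signs.

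**Figure D1:**
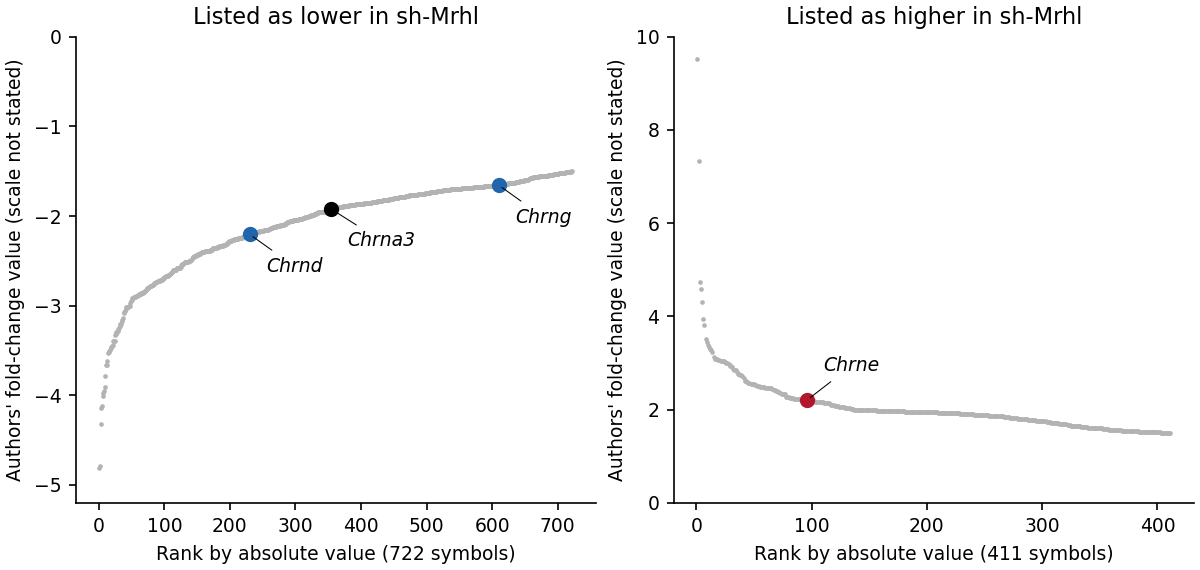
Authors' fold-change value (y axis, scale not stated) of every symbol listed as lower (left, 722 symbols) or higher (right, 411 symbols) in sh-Mrhl, against its rank by absolute value (x axis). Chrnd at -2.20 and Chrng at -1.66 are blue, Chrne at 2.20 is red and the neuronal subunit gene Chrna3 at -1.92 is black. None of these genes is among the extremes of its table.

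The contrast of the adult with the fetal subunit follows from the deposited values of both genes. From the authors' deposited tables, the ratio of epsilon to gamma transcript would be 3.65 times higher in sh-Mrhl than in scrambled if the values are signed linear folds. It would be 14.5 times higher if they are log2 ratios. The ratio of delta to gamma transcript would be 1.33 times higher in scrambled than in sh-Mrhl on the first scale and 1.46 times on the second. The tables hold no levels, so they do not show which of the gamma and epsilon transcripts was the more abundant in either group, and a ratio of changes is not a ratio of levels. No error could be computed for these ratios.

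Chrnd and Chrng are neighbours on chromosome 1. In GENCODE M21, an annotation of GRCm38 (mm10), Chrnd runs from 87190607 to 87200070 and Chrng from 87204657 to 87212694, both on the plus strand. There are 4586 bases between the end of Chrnd and the start of Chrng, with no annotated gene in between. The GENCODE start of Chrng belongs to a short transcript. The transcript with the longest coding sequence starts at 87205811, which is also the RefSeq start and lies 1154 bases further downstream. The protease gene Prss56 ends 2201 bases before Chrnd, and Eif4e2, which encodes a relative of the cap-binding protein eIF4E, starts 1219 bases after Chrng. Neither was listed. Within 500 kb of Chrnd there were 37 other annotated genes, 15 of them protein-coding. Chrng, which was chosen because it was listed, was the only listed gene among them. The same was so within 1000 kb, where 88 other genes were annotated, 35 of them protein-coding. With a background of 2.51% of protein-coding symbols listed in either direction, nothing is read from these counts.

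Chrne lies on chromosome 11 from 70614883 to 70619216 on the minus strand. The protein-coding gene 4930544D05Rik lies wholly inside it on the opposite strand, from 70615848 to 70616890. Of the 1690 exonic bases of Chrne, 0 are also exonic in 4930544D05Rik, which was not listed. Mink1, which encodes a kinase, converges on Chrne and ends 399 bases from its end, and was not listed either. Whether the authors counted reads by strand is not given in the sources used here, so reads from introns of Chrne and from 4930544D05Rik may not be separable, and the part of this in the value of Chrne was not tested. Within 500 kb of Chrne there were 67 other annotated genes, 44 of them protein-coding, and 1 was listed. The background was 2.51% of protein-coding symbols, and nothing is read from this count. The listed gene was Gltpd2, of the glycolipid transfer protein family, 94146 bases away on the opposite strand, at -1.60 in the authors' deposited table.

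**Figure D2:**
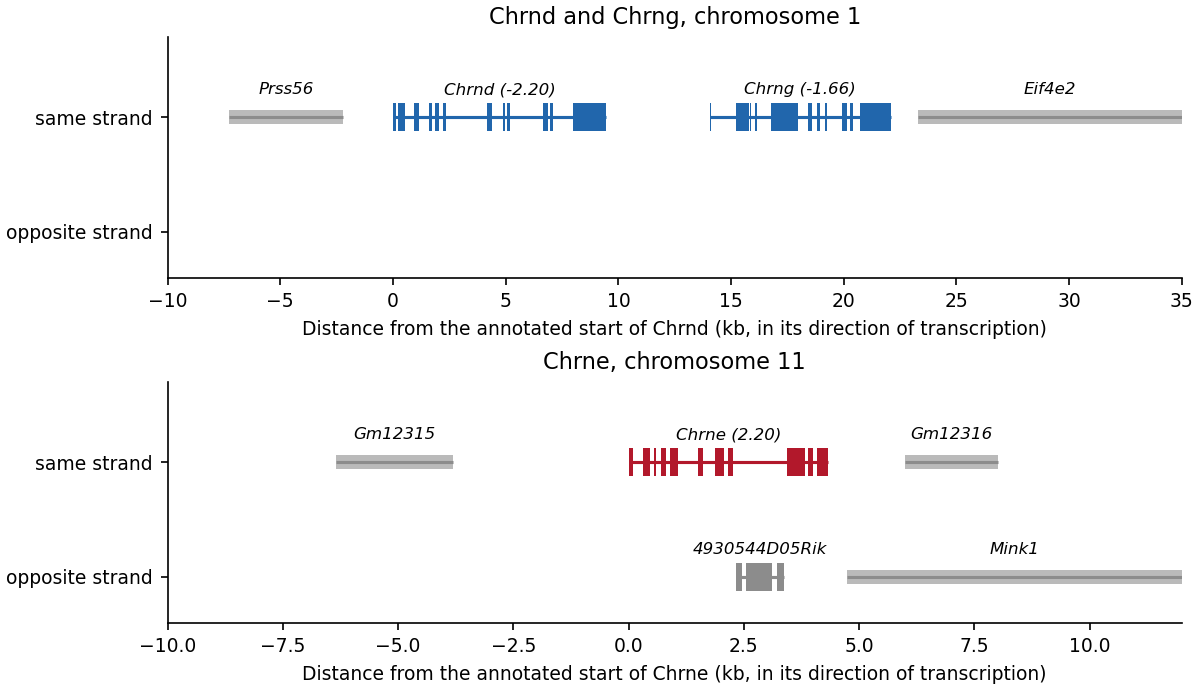
Maps of the Chrnd and Chrng locus (top) and the Chrne locus (bottom), with distance from the annotated gene start in kb on the x axis and the strand relative to that gene on the y axis. Bars are exons of all annotated transcripts for the subunit genes and 4930544D05Rik, grey blocks are whole genes, and numbers in brackets are the authors' values. Chrnd (-2.20) and Chrng (-1.66) follow each other on 1 strand 4586 bases apart, and Chrne (2.20) holds 4930544D05Rik inside an intron.

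The 3 genes are related, so their transcripts were compared for stretches that could give shared reads. The coding sequences of 1560 bases in Chrnd, 1557 in Chrng and 1482 in Chrne were aligned in pairs. Chrnd and Chrng were identical at 62.6% of aligned bases, Chrng and Chrne at 61.5%, and Chrnd and Chrne at 59.4%. Over the shorter sequence of each pair the shares were 60.4%, 60.8% and 58.6%, so Chrng and Chrne came first. With other gap scores they were 58.6%, 57.9% and 57.5%, in the first order again. The longest run of identical coding bases was 21 for Chrnd and Chrng, 17 for Chrnd and Chrne and 15 for Chrng and Chrne. No stretch of 50 bases from any transcript of the 3 genes occurred in a transcript of another annotated gene, on either strand. The read length is not given in the sources used here.

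The other parts of the receptor and its surroundings were looked up in the same tables. Chrna1 and Chrnb1, which encode the alpha and beta subunits that every muscle receptor needs, were not listed. Of the 11 neuronal and other nicotinic subunit genes, 1 was lower and none higher. This was Chrna3, which encodes the ligand-binding subunit of ganglionic receptors, at -1.92 in the authors' deposited table. Chrna3 lies on chromosome 9 from 55010111 to 55026562, between Chrna5 and Chrnb4, whose products assemble with it, and neither of these was listed. The background in either direction was 2.51% of the protein-coding symbols annotated. A gene that was not listed may still have differed, since its value and the threshold are not known.

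Of 26 subunit genes of GABA-A, glycine and serotonin type 3 receptors, the other Cys-loop channels, 2 were lower and none higher. Among all annotated protein-coding symbols 1.58% were listed as lower and 0.935% as higher, and nothing is read from counts this small. Gabrr1, a rho subunit gene of retinal GABA receptors, was at -2.57 and Gabrb2, a beta subunit gene of GABA-A receptors, at -1.61 in the authors' deposited table. None of the 5 muscarinic receptor genes was listed. Nor was any of the 7 genes for making, breaking down or carrying acetylcholine, among them Ache and Chat. The 12 genes for nicotinic receptor assembly and Ly6-type partners, such as Ric3, were likewise not listed.

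Genes that act with these subunits in muscle were mostly not listed. The same was so for annotated protein-coding symbols as a whole, of which 2.51% were listed in either direction. Nothing is therefore read from a gene being unlisted. None of 26 organisers of the neuromuscular junction was listed, among them Agrn, Musk and Rapsn, which drive receptor clustering. None of 24 myogenic regulators was listed, among them Myod1 and Myog, which activate receptor subunit genes in muscle. Of 51 contractile and excitation genes of skeletal muscle, 1 was lower and 2 were higher. Ckm, the muscle creatine kinase gene, was at -2.72, Scn4a, the muscle sodium channel gene, at 1.96 and Mybpc1, a myosin-binding protein gene, at 1.52 in the authors' deposited tables.

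Markers of other cell types were looked up as well. Of 7 motor neuron markers, the LIM homeobox gene Lhx1 was lower, at -1.77, and of 12 fibroblast and feeder cell markers, the collagen gene Col3a1 was lower, at -1.69 in the authors' deposited table. None of 10 embryonic stem cell markers, such as Pou5f1 and Nanog, was listed. The tables give no levels, so the identity of the cells could not be checked from markers, and the part of other cell types in the values of the receptor genes was not tested. Over the 11 lists without the muscle receptor subunits, 6 of 191 genes were lower and 2 were higher, beside 1.58% and 0.935% of all annotated protein-coding symbols, and 6 of these lists had no listed gene.

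**Figure D3:**
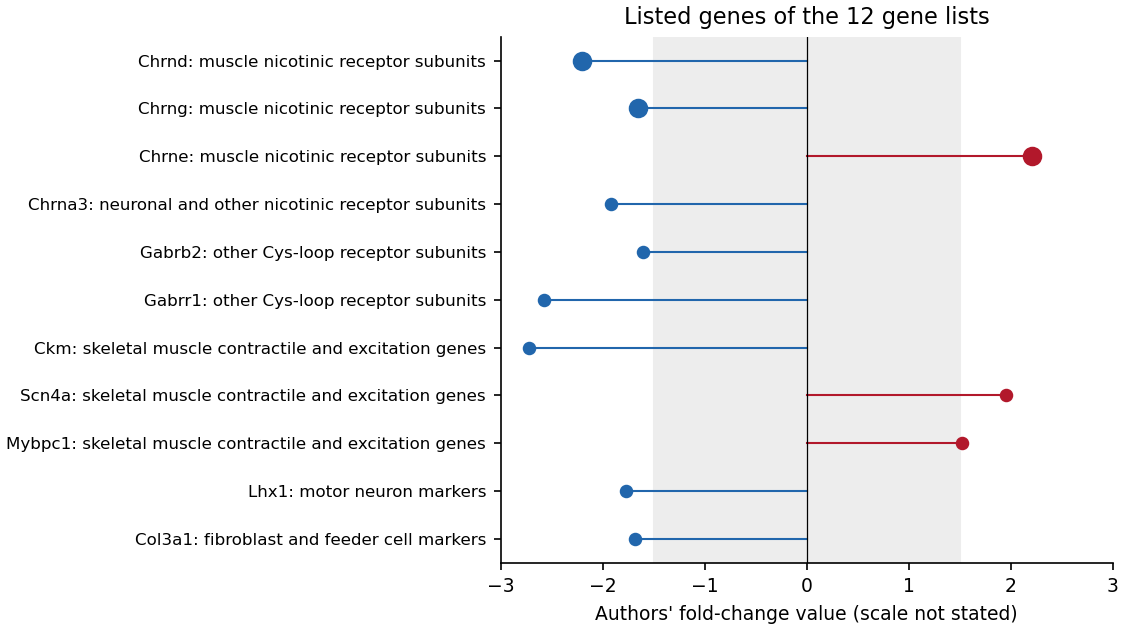
Authors' fold-change value (x axis, scale not stated) of the 11 listed genes of the 12 gene lists, each labelled with its list. Large points are Chrnd, Chrng and Chrne, blue is lower and red is higher in sh-Mrhl, and the grey band within 1.5 of 0 on either side holds no listed value. Lower genes run from -1.61 to -2.72 and higher genes from 1.52 to 2.20.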

How the data were processed

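The 4 libraries were made with an Illumina TruSeq RNA kit from DNase-treated total RNA, per the labels' protocols. TopHat2, Cuffdiff and mm10 are named in the submitters' processing notes; neither versions nor annotation, test and threshold were given in the sources used here. The 2 tables hold the authors' deposited fold change, 1 signed value per gene, treated here as a score because its scale is not stated. Its readings as a linear fold and as log2 were computed side by side. Depth and precision are unknown.

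The members and gene lists were chosen with earlier results of these data known. Planned tests on values per library could not be run, and nothing was tested. Distinct symbols were counted per table, with GENCODE M21 and RefSeq on GRCm38 for positions, transcripts and promoters. Named genes were the members, listed genes of the lists, genes listed within 500 kb or overlapping members, and the protein-coding genes next in value, of which 1 is not reported here; adjacent genes, unlisted examples and neighbouring pairs were added afterwards. Coding sequences were aligned globally (match 1, mismatch -1, gap opening -5, extension -0.5). The motif search was tested on motifs planted in simulated sequences of A and T only. The alignment was tested on a simulated pair of equal length that differed by substitutions alone. These tests did not cover chance motif matches or the placing of gaps. Alternatives changed the minimum absolute value, the counting unit, gene types, windows, gap scores and gene bounds. Python 3.11.15, pandas 2.3.3, Biopython 1.88 and matplotlib 3.10.9 were used.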

Additional observations from a re-analysis of the deposited data

How the results depend on the processing

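With absolute values of at least 2, 1 muscle receptor subunit gene (Chrnd) stayed in the lower table in place of 2, because Chrng is at -1.66. In that setting the protein-coding symbols fell to 160 lower and 83 higher, and the listed genes of all lists to 4. With all gene types in place of protein-coding ones, 722 symbols were lower and 411 higher. These 6 changes follow from how each setting is built. Of 32 alternatives in all, 22 stayed within 1.5 times the reported value. The distance between Chrnd and Chrng was 14050 bases from start to start and 5740 bases between RefSeq gene bounds, an alternative chosen after the data were seen, as were those for coding identity (57.9% with other gap scores and 60.8% over the shorter sequence for Chrng and Chrne). The protein identity planned was not run, since no protein table was used. No paired analysis was possible because each gene has 1 value over all libraries. This also kept the planned runs without single replicates, and with other normalizations, pseudocounts and filters, from being made.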

Other observations

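Chrnd and Chrng are 1 of 18 pairs of adjacent protein-coding genes that were both listed, of which 6 pairs were lower, 4 were higher and 8 had opposite directions. Of all listed protein-coding symbols, 348 were lower and 207 higher, and nothing is read from the split of the pairs. Several of these pairs, named after their values were seen, are members of 1 gene family. In the authors' deposited tables Rgs5 at -1.73 and Rgs4 at -1.66, regulators of G protein signalling, were both lower, as were Aadacl2 at -1.71 and Aadac at -1.64, of the arylacetamide deacetylase family. The homeobox genes Six3 at 4.74 and Six2 at 1.80 were both higher in the authors' deposited table. Hoxb8 at 2.44 and Hoxb7 at -3.32 had opposite directions in the authors' deposited tables. Whether neighbours share a direction more often than other listed genes was not tested over these pairs.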
